A study of Mus musculus with 8 samples.

Results

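Immediate early genes and the genes that restrain MAP kinase signaling were examined in mouse bone marrow-derived dendritic cells (BMDCs) treated with [BF/S+L/Ep], the butanol fraction of a stem and leaf extract of *Echinacea purpurea*. The set holds 38 genes, listed by symbol, of 18193 genes with a single symbol on the array. Each gene was read from its brightest probe set, the one with the highest mean log2 signal over the 8 arrays. There were 4 groups of 2 arrays. Cells received 75 μg/mL of [BF/S+L/Ep] for 12 h, 0.1% DMSO as vehicle for 12 h, the extract for 4 h, or DMSO for 4 h. The donors of all marrow were female BALB/c mice, 6 weeks of age. Growth with GM-CSF took 9 days, with 200 U/mL according to the labels (the study's methods give another amount). The non-adherent cells were used as immature DCs, without a sort, and DMSO was present in every group. The study calls the arrays of a group biological replicates. The labels do not say whether they came from separate cultures or animals, so p-values measure only the spread between these arrays, and the small number of arrays limits the precision.

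Immediate early genes are transcribed within minutes of a stimulus because the factors that switch them on, such as SRF, CREB and NF-κB, are already present in the cell. Many encode transcription factors, among them the FOS and JUN subunits of AP-1, the EGR zinc finger proteins and the NR4A nuclear receptors. Others encode brakes. The dual specificity phosphatases (DUSPs) remove phosphate from ERK, p38 or JNK, Sprouty and SPRED proteins restrain the step from Ras to ERK, and tristetraprolin (*Zfp36*) shortens the life of AU-rich mRNAs. In DCs these genes are known for their response to microbial products and growth factors, and some stay high for as long as the signal lasts.

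The stretches before the start sites of 6 of these genes are shown. *Fos*, *Egr2*, *Ier3*, *Plk2* and *Dusp1* were among the genes that changed with time, and *Dusp5* had one of the smallest p-values for the extract. They were also picked because they hold different sites of the factors that switch on immediate early genes. *Spred1* and *Ier5* changed with time too but held none of the motifs searched, and *Egr1* had no matched promoter. The sequences are from RefSeq (GRCm38.p6), 220 bases each, read 5′ to 3′ toward the start site on the gene's own strand, with motif matches in capitals. They lie at chr12:85473670-85473889 (*Fos*, plus strand), chr10:67537346-67537565 (*Egr2*, plus strand, 1 of 5 listed starts), chr17:35821493-35821712 (*Ier3*, plus strand), chr13:110394824-110395043 (*Plk2*, plus strand), chr17:26508473-26508692 (*Dusp1*, minus strand) and chr19:53528925-53529144 (*Dusp5*, plus strand).
Fos: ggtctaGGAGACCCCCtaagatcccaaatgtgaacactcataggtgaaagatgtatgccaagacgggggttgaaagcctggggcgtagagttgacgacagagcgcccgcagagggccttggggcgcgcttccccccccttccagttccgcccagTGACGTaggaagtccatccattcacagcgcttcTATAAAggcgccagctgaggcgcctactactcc
Egr2: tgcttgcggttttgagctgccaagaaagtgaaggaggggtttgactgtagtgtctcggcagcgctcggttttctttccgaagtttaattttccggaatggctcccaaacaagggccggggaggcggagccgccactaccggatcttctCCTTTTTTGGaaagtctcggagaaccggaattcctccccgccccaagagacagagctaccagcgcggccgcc
Ier3: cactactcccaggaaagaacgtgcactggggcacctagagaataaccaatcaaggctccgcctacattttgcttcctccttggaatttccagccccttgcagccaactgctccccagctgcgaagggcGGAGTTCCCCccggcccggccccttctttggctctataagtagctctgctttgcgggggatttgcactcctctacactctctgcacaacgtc
Plk2: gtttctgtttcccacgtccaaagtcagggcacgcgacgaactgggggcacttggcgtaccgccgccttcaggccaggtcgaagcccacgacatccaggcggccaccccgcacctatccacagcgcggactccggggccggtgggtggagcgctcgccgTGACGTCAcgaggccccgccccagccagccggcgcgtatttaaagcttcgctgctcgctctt
Dusp1: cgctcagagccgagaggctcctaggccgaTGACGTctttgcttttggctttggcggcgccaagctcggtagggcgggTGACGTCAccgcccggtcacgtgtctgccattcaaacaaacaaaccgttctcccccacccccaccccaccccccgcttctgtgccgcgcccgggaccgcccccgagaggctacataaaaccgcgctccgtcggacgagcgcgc
Dusp5: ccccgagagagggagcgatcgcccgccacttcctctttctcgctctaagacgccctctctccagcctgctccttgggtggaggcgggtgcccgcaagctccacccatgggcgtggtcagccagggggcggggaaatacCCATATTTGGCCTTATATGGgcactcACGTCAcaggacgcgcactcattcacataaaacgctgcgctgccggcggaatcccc
In *Fos* the capitals mark an NF-κB site from position -214, the letters TGACGT from -66 and a TATA box from -33. Positions count back from -1, the base just before the start site. In *Egr2* they mark a CArG box, the site that SRF binds, from -72. In *Ier3* they mark an NF-κB site from -92. In *Plk2* and *Dusp1* they mark a full cAMP response element (CRE, TGACGTCA) from -62 and from -143, and *Dusp1* holds a further TGACGT from -191. In *Dusp5* they mark CArG boxes side by side from -82 and -72, and a TGACGT on the other strand from -56.

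RefSeq promoters, from 250 bases before to 50 bases after a start, were matched for 30 of the 38 genes, and not for *Fosl1*, *Egr1*, *Egr3*, *Ier2*, *Dusp4*, *Myc*, *Phlda1* and *Hbegf*. Of the 30, 4 held a CArG box (*Egr2*, *Dusp5*, *Zfp36* and *Srf*), against 1.81% of the 27025 genes with a promoter. A CRE (TGACGTCA) was found in 5 (*Dusp1*, *Maff*, *Btg2*, *Errfi1* and *Plk2*), against 2.03% of all genes. The shorter TGACGT, which every CRE contains, was found in 12, against 8.37%. The EGR site GCGNGGGCG was found in 10, against 6.27%, and the NF-κB site in 6, against 5.14%. TATAAA was found in 7, against 15.7%, and the AP-1 site (TGANTCA with C or G at N) only in *Csrnp1*, against 5.95%. Both strands were searched, and a match describes letters only and not a bound site. Of the 30 genes, 7 held none of the 7 motifs in the window, among them *Ier5*, *Spred1*, *Dusp6* and *Jun*.

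**Figure D1:**
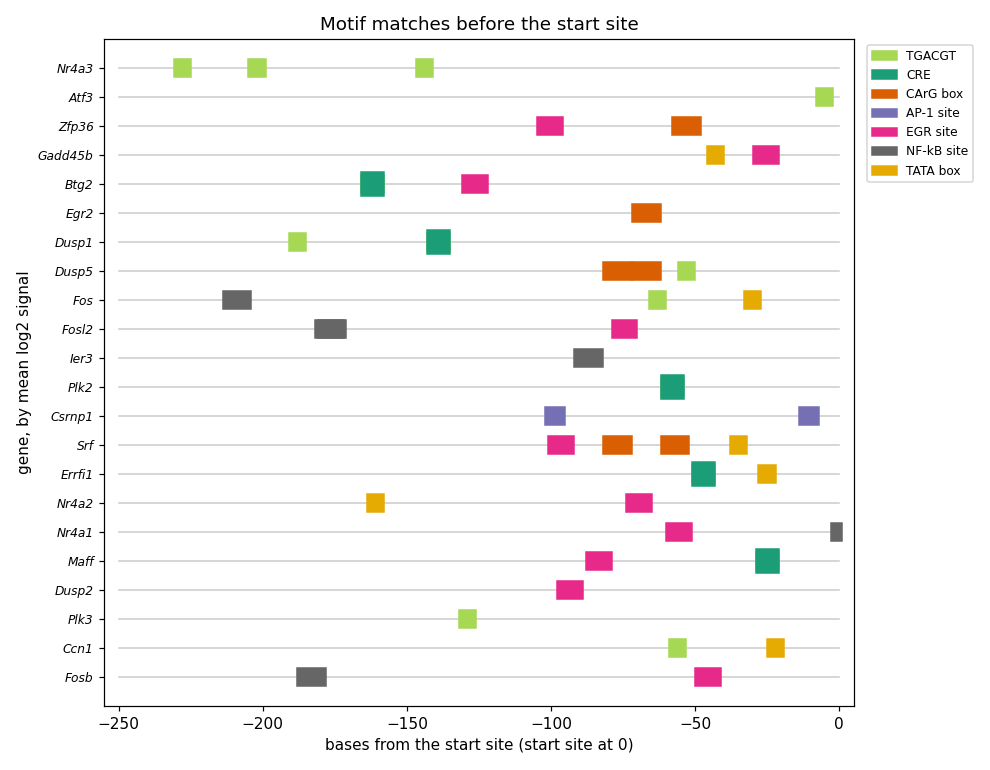
Motif matches in the 250 bases before the start site, for each gene with a match there. The x axis gives bases from the start site, genes are ordered by mean log2 signal, and each colored block is a match. *Dusp5* and *Srf* each have more than 1 CArG box. For *Egr2* and *Maff*, which have matches at several listed starts, the window with the lowest coordinate is drawn, so the NF-κB site at another start of *Maff* is not shown.

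Values are the authors' MAS5 signals on the linear scale, and each array had a trimmed mean of 500 (2% taken off each end). Background was judged from 83 probe sets of smell, pheromone and taste receptors. The 95th percentile of their signals on an array is called the background reference, and it lay between 66.7 and 107. On each array it was exceeded by 48.8% to 54.9% of all probe sets. The 14 DC markers examined, such as *Itgax* and the MHC class II genes, were all above it on at least 4 arrays, with *Flt3* and *Cd209a* low. In these bulk samples, fewer cells of a type and less RNA per cell cannot be told apart.

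Most of the immediate early and feedback genes were readily measured in every group, vehicle-treated cells included. Of the 38 genes, 34 were above background on at least 4 arrays and 29 on all 8. *Nr4a3*, an orphan nuclear receptor, had the highest signals of the set, from 10479 to 14166. *Jund*, the AP-1 subunit that many resting cells express, followed at 6616 to 10828. *Atf3*, a stress-induced repressor of the ATF family, gave 4454 to 5547. *Zfp36* gave 3375 to 5148. *Gadd45b*, which activates the kinase MAP3K4 upstream of p38 and JNK, gave 2088 to 5005. Signals of different probe sets are not on a common scale, so this order describes the array and not the number of transcripts.

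At the other end, *Fosb* and *Dusp4* (MKP-2) were under background on all 8 arrays, *Fosl1* (FRA-1) was above it on 1 and *Ccn1* on 2. *Ccn1*, also called *Cyr61*, encodes a matrix-associated protein that binds integrins. Its brightest probe set read 83.3 and 41.8 with [BF/S+L/Ep] at 12 h, 34.5 and 62.4 with DMSO at 12 h, 45.1 and 72.5 with the extract at 4 h, and 7.3 and 78.3 with DMSO at 4 h. At this probe set the groups overlapped at both times. Its 3 other probe sets were above background on no more than 1 array. One of them was apart between treatments at both times, at 64.9 and 90.3 with the extract against 56.1 and 51.5 with DMSO at 12 h, and at 42.7 and 49.8 with the extract against 4.0 and 12.2 with DMSO at 4 h. All 4 of its arrays at 4 h were under background. The remaining probe sets of *Ccn1* were under background on all 8 arrays. Of these, 1 was apart and higher with the extract at 12 h (29.6 and 18.2 against 8.7 and 9.5). Another was apart and lower with the extract at 4 h (4.5 and 2.9 against 5.9 and 8.9). No fold change is therefore given for *Ccn1*. *Spry1*, *Spry2*, *Dusp2*, *Plk3* and *Hbegf* lay close to background, with signals from 13.5 to 201.9. Replicate arrays of the 34 measured genes differed by a median of 0.19, 0.16, 0.20 and 0.23 on the log2 scale for the extract at 12 h, DMSO at 12 h, the extract at 4 h and DMSO at 4 h. The widest gap was in *Plk3*, 2.91 between the DMSO arrays at 4 h.

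**Figure D2:**
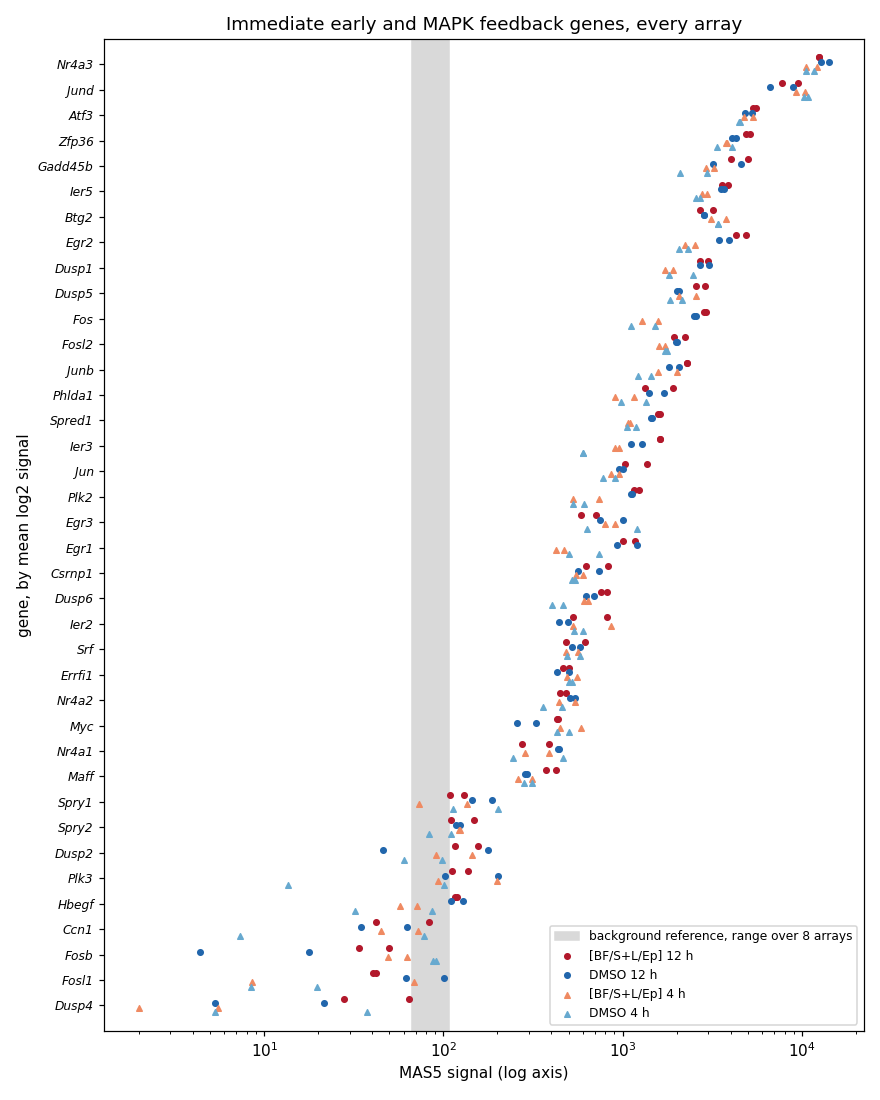
Signals of all 38 genes on each array (x axis, MAS5 signal on a log axis; y axis, genes by mean log2 signal). Each point is 1 array, circles are 12 h and triangles 4 h, and the grey band is the range of the background reference (66.7 to 107). *Fosb* and *Dusp4* stay within or below the band on every array, and points of 1 group spread widest among the dim genes.

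The first question was whether [BF/S+L/Ep] changed these genes against vehicle at the same time. *Ier3* (IEX-1), which encodes an ERK substrate and survival factor, was higher with the extract at both times. *Junb*, *Dusp6* and *Atf3* also had every extract-treated array above the vehicle arrays of its time, and none of them passed the test. Such separation at both times was seen in 10.5% of the set and in 3.34% of all probe sets. In either direction it was seen in 7.63% of all probe sets. No gene of the set passed at 12 h or at 4 h alone, and *Ier3* passed when both times were averaged. None was lower past the threshold.

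*Ier3* read 1624 and 1625 with [BF/S+L/Ep] and 1115 and 1284 with DMSO at 12 h. At 4 h it read 903 and 952 with [BF/S+L/Ep] and 598 and 600 with DMSO. Each extract-treated array was above both vehicle arrays of its time. The log2 fold change was 0.44 at 12 h (standard error 0.13, limma adjusted p = 0.564) and 0.63 at 4 h (standard error 0.13, limma adjusted p = 0.372). Averaged over both times it was 0.54 (standard error 0.09, 1.45-fold, limma adjusted p = 0.0465). Without any 1 of the 8 arrays this adjusted p lay between 0.0834 and 0.272, and it was 0.132 with each array centred on its median and 0.53 when moderation left out the intensity trend. The difference between the times was -0.19 (standard error 0.18) and did not pass.

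At the calling threshold, an adjusted p under 0.05 over 45037 probe sets, 0 of the 38 genes were called at 12 h, where 0.02% of all probe sets were, and 0 at 4 h, where 0.00444% were. By limma, 7 genes at 12 h and 5 at 4 h had an unadjusted p under 0.05, of 2684 and 2238 probe sets in all. The count was also 0 with robust moderation and without the trend. Over both times the count was 1 of 38 (2.63%), against 0.107% of all probe sets. The 38 genes had a median log2 fold change of 0.13 at 12 h and 0.11 at 4 h, where probe sets above background on at least 4 arrays had medians of -0.00055 and -0.0015. Single arrays moved these medians. At 12 h the median was 0.07 without [BF/S+L/Ep] replicate 1. At 4 h it was 0.05 without DMSO replicate 1 and 0.07 without [BF/S+L/Ep] replicate 2. With arrays centred on their medians it was 0.20 at 12 h and 0.17 at 4 h.

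Counting arrays in place of p-values, 16 genes had both extract-treated arrays above both vehicle arrays at 12 h (42.1%) and 6 had both below. Among all probe sets, 15.1% were higher in this way and 34.8% were separated in either direction, against 57.9% of the set. At 4 h, 7 genes were higher and 3 lower (26.3% separated), against 32.6% of all probe sets. At both times together 4 genes were higher at their brightest probe sets (10.5%), *Ier3*, *Junb*, *Dusp6* and *Atf3*, and 0 lower. Of all probe sets, 3.34% were higher in this way and 7.63% were separated in either direction. Of probe sets above background on at least 4 arrays, 4.65% were higher and 9.13% were separated in either direction. Dimmer probe sets of the genes could differ. The dimmest of *Gadd45b*, above background on all 8 arrays, was lower without overlap at both times (-0.78 at 12 h and -0.46 at 4 h). Its brightest gave 0.23 and 0.31. A dimmer *Spred1* probe set, also above background on all 8 arrays, was higher without overlap at both times (0.23 and 0.18). None of these passed.

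Among AP-1 genes, *Junb* read 2286 and 2285 with [BF/S+L/Ep] and 1807 and 2070 with DMSO at 12 h. At 4 h it read 1585 and 2008 with [BF/S+L/Ep] and 1439 and 1211 with DMSO. The groups did not overlap at either time, with log2 fold changes of 0.24 (standard error 0.14) at 12 h and 0.43 (standard error 0.14) at 4 h and limma adjusted p-values of 0.888 and 0.969. *Fos* was within 0.20 of vehicle on the log2 scale at each time (0.19 at 12 h and 0.13 at 4 h, standard errors 0.15), with 95% intervals that take in 0. Its arrays were apart at 12 h, higher with the extract, and overlapped at 4 h. *Jun*, *Jund* and *Fosl2* likewise gave log2 fold changes between -0.10 and 0.27, none past the test. The probe sets of *Jun* disagreed at 12 h. The brightest gave 0.27, and the other, above background on all 8 arrays, gave -0.28, at 510 and 491 with [BF/S+L/Ep] against 602 and 608 with DMSO. *Maff*, a small MAF protein that pairs with AP-1 family members, read 374 and 426 with [BF/S+L/Ep] and 292 and 284 with DMSO at 12 h, and overlapped at 4 h. Its effect at 12 h minus that at 4 h was 0.52 (standard error 0.30, limma adjusted p = 1).

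Of the feedback phosphatases, *Dusp6* (MKP-3), which acts on ERK in the cytoplasm, read 758 and 816 with [BF/S+L/Ep] and 621 and 688 with DMSO at 12 h. At 4 h it read 612 and 641 with [BF/S+L/Ep] and 405 and 463 with DMSO. All extract-treated arrays were above the vehicle arrays of their time. Its log2 fold change was 0.27 at 12 h, 0.53 at 4 h and 0.40 over both (standard error 0.11, limma adjusted p = 0.370 over both). *Dusp5*, which acts on ERK in the nucleus, read 2576 and 2869 with [BF/S+L/Ep] and 2073 and 2002 with DMSO at 12 h. At 4 h it read 2066 and 2557 with [BF/S+L/Ep] and 2138 and 1827 with DMSO. The groups were apart at 12 h and overlapped at 4 h, and the log2 fold change over both times was 0.32 (standard error 0.09, limma adjusted p = 0.438). *Dusp1* (MKP-1), which acts mainly on p38 and JNK, overlapped at both times (-0.02 and -0.22 at 12 h and 4 h). The ERK brakes *Spry1*, *Spry2* and *Spred1* had no call, with log2 fold changes of -0.47, 0.08 and 0.15 at 12 h.

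*Myc*, a growth regulator, read 431 and 438 with [BF/S+L/Ep] and 327 and 257 with DMSO at 12 h. At 4 h it read 449 and 584 with [BF/S+L/Ep] and 430 and 504 with DMSO. The groups were apart at 12 h and overlapped at 4 h, with log2 fold changes of 0.58 (standard error 0.20, limma adjusted p = 0.713) and 0.14. *Egr2*, a zinc finger factor, read 4892 and 4266 with [BF/S+L/Ep] and 3904 and 3431 with DMSO at 12 h, a log2 fold change of 0.32 (standard error 0.12, limma adjusted p = 0.745). At 4 h its groups overlapped. *Egr1* ran the other way at 4 h, at 473 and 427 with [BF/S+L/Ep] against 501 and 738 with DMSO, and overlapped at 12 h. The difference between its effects, 12 h minus 4 h, was 0.47 (standard error 0.27, limma adjusted p = 1).

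At their brightest probe sets, the 3 NR4A genes were each lower in both extract-treated arrays than in both vehicle arrays at 12 h, as were 19.7% of all probe sets. The differences were -0.11 for *Nr4a3*, -0.17 for *Nr4a2* and -0.44 for *Nr4a1* on the log2 scale, and none passed the test. Of the other *Nr4a2* probe sets above background on all 8 arrays, 2 overlapped and gave 0.36 and 0.07, and 1 overlapped and gave -0.31. At 4 h the 3 overlapped between treatments. *Plk3*, a polo-like kinase of the stress response, had the smallest p for a difference between times among measured genes (-2.10, standard error 1.10, limma adjusted p = 1). That value rested on DMSO at 4 h, where its arrays read 101.3 and 13.5, and it was -0.64 without the lower of them. No gene of the set, and 0% of all probe sets, passed the test of a difference in extract effect between the times. By limma, 1 gene (*Fosb*, under background) and 1647 probe sets had an unadjusted p under 0.05 in that test.

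**Figure D3:**
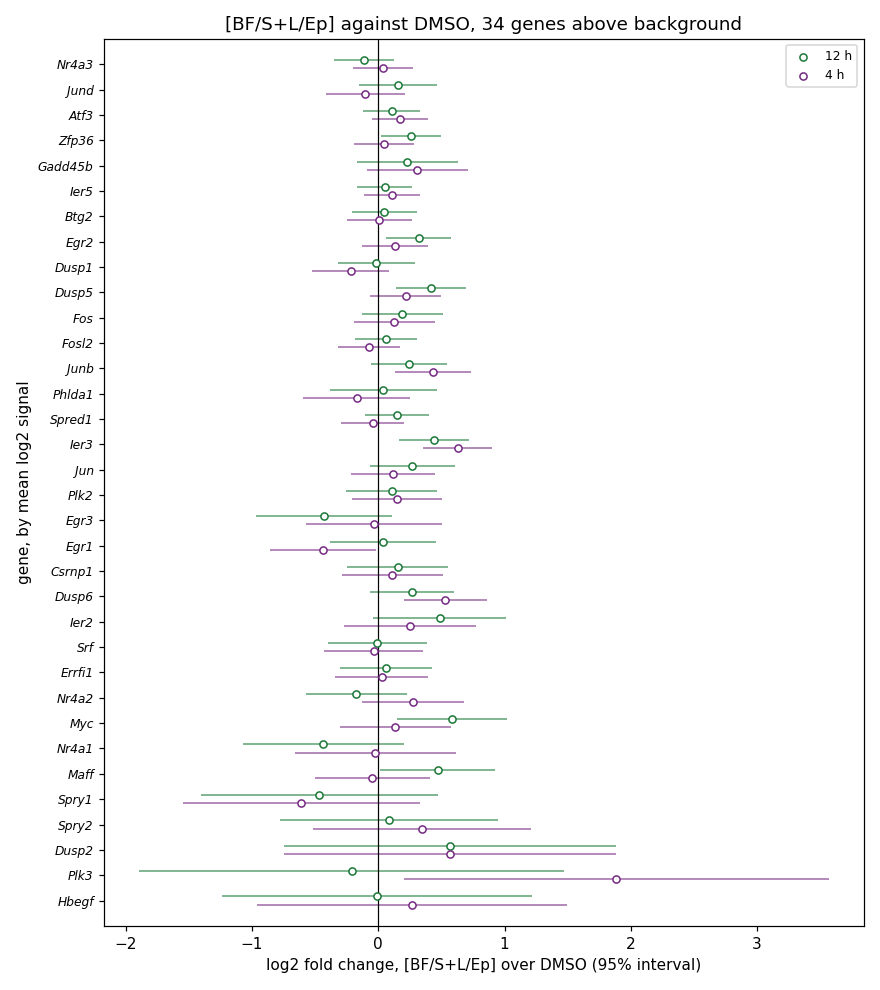
Log2 fold change of [BF/S+L/Ep] over DMSO with 95% intervals (x axis) for the 34 genes above background on at least 4 arrays (y axis, by mean log2 signal), at 12 h in green and at 4 h in purple. Open points did not pass the test, which holds for every point here. *Ier3* lies to the right of 0 at both times (0.44 and 0.63), and the dim genes at the bottom have the widest intervals.

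The other question was how these genes differed between 12 h and 4 h of culture in each arm. *Fos*, *Egr2*, *Ier3* and *Plk2* rose in both arms, by 1.68-fold to 2.03-fold. *Egr1*, *Dusp1* and *Spred1* passed the test with [BF/S+L/Ep], and *Ier5* with DMSO, the least stable of these calls in fits without 1 array. No gene of the set fell past the threshold in either arm. The set thus included AP-1 and EGR factors, a phosphatase, an ERK brake and a kinase among its calls.

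With [BF/S+L/Ep], 7 of the 38 genes were called (18.4%), against 2.86% of all probe sets and 4.26% of genes at their brightest probe set. With DMSO, 5 were called (13.2%), against 2.1% of all probe sets and 3.34% of genes. Of probe sets above background on at least 4 arrays, 5.45% were called with [BF/S+L/Ep] and 4.02% with DMSO. The shares called as higher among all probe sets were 1.55% with [BF/S+L/Ep] and 1.18% with DMSO. The 4 genes called in both arms were 57.1% of the calls with [BF/S+L/Ep] and 80% of those with DMSO. The arms share no array, but the test of a gene used the same variance, pooled over all groups, in both arms. The calls of the arms are therefore not independent of each other. The median log2 fold change of the 38 genes was 0.32 with [BF/S+L/Ep] and 0.31 with DMSO, against 0.022 and 0.021 for probe sets above background on at least 4 arrays. Both 12 h arrays were above both 4 h arrays for 21 genes and below for 2 with [BF/S+L/Ep] (60.5% separated), against 42.1% of all probe sets. With DMSO, 23 were above and 5 below (73.7%), against 41.6%. Of probe sets above background on at least 4 arrays, 50.1% were separated with [BF/S+L/Ep] and 49.3% with DMSO.

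*Fos*, the partner of JUN proteins in AP-1, read 2917 and 2853 with the extract at 12 h and 1278 and 1583 with the extract at 4 h. With DMSO it read 2554 and 2506 at 12 h and 1517 and 1118 at 4 h. Every 12 h array was above every 4 h array. The log2 fold change, 12 h over 4 h, was 1.02 with [BF/S+L/Ep] (standard error 0.15, limma adjusted p = 0.00194) and 0.96 with DMSO (standard error 0.15, limma adjusted p = 0.00387). Of the other AP-1 genes, *Junb* gave 0.36 and 0.55 with [BF/S+L/Ep] and DMSO (limma adjusted p = 0.247 and 0.0660), with 12 h arrays above 4 h arrays in both arms. *Jund* ran lower at 12 h by 0.20 and 0.45 and did not pass.

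*Egr1* and *Egr2* encode zinc finger factors that bind GC-rich sites, and *Egr2* is known for limiting T cell activation. *Egr2* read 4892 and 4266 with the extract at 12 h and 2535 and 2234 at 4 h. In DMSO cells it gave 3904 and 3431 at 12 h and 2053 and 2302 at 4 h. The 12 h arrays were the higher ones in both arms, with log2 fold changes of 0.94 (limma adjusted p = 7.68e-04) and 0.75 (limma adjusted p = 0.00511), standard errors 0.12. Its other probe set gave 1.16 and 0.71 in the same arms and passed in both.

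*Egr1* read 1176 and 1008 with the extract at 12 h and 473 and 427 at 4 h, a log2 fold change of 1.28 (standard error 0.19, limma adjusted p = 0.00283). The DMSO arrays read 1206 and 934 at 12 h and 501 and 738 at 4 h, a log2 fold change of 0.80 (standard error 0.19, limma adjusted p = 0.0535). The time groups did not overlap in either arm, and the difference between the arms is the 0.47 given above, which did not pass. *Egr3* was lower on both 12 h arrays with [BF/S+L/Ep] and overlapped with DMSO, at -0.40 and -0.01, neither past the test.

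*Ier3*, the gene with the NF-κB site from -92, read 1624 and 1625 at 12 h and 903 and 952 at 4 h with [BF/S+L/Ep]. The DMSO arrays gave 1115 and 1284 at 12 h and 598 and 600 at 4 h. No array of 1 group overlapped another group. The log2 fold changes were 0.81 with [BF/S+L/Ep] (standard error 0.13, limma adjusted p = 0.00351) and 0.997 with DMSO (standard error 0.13, limma adjusted p = 8.77e-04). *Ier5*, which binds the phosphatase PP2A, read 3891 and 3569 at 12 h and 2762 and 2955 at 4 h with [BF/S+L/Ep]. Under vehicle the signals were 3677 and 3525 at 12 h and 2582 and 2710 at 4 h. The time groups were apart in both arms, with log2 fold changes of 0.38 (limma adjusted p = 0.0699) and 0.44 (limma adjusted p = 0.0420). Its other probe sets, also above background on all 8 arrays, did not pass in either arm. With DMSO they gave 0.22 (limma adjusted p = 0.848) and 0.87 (limma adjusted p = 0.0744). With [BF/S+L/Ep] they gave 0.43 and 0.44, and the time groups of the first overlapped in both arms. The DMSO call of *Ier5* was kept in 2 of the 8 fits without 1 array (adjusted p from 0.0363 to 0.259), and it was lost with the replicate number as a block (adjusted p = 0.0531). *Ier2* had no call, at -0.04 and -0.28.

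*Plk2*, a polo-like kinase and target of p53, read 1240 and 1163 at 12 h and 530 and 741 at 4 h with [BF/S+L/Ep]. With DMSO it read 1120 and 1112 at 12 h and 528 and 608 at 4 h. All 12 h arrays were above all 4 h arrays, whatever the treatment. The log2 fold changes were 0.94 (limma adjusted p = 0.00743) and 0.98 (limma adjusted p = 0.00726), standard errors 0.17.

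*Dusp1*, whose promoter holds the CRE from -143, read 2698 and 2981 at 12 h and 1729 and 1916 at 4 h with [BF/S+L/Ep], a log2 fold change of 0.64 (standard error 0.14, limma adjusted p = 0.0282). For vehicle the values were 2696 and 3051 at 12 h and 2461 and 1825 at 4 h, a log2 fold change of 0.44 (limma adjusted p = 0.175). *Dusp6* gave 0.33 and 0.59, and *Dusp5* gave 0.24 and 0.04, in the [BF/S+L/Ep] and DMSO arms, none past the test. *Spred1*, which keeps Ras from activating Raf, read 1578 and 1612 at 12 h and 1096 and 1073 at 4 h with [BF/S+L/Ep], a log2 fold change of 0.56 (standard error 0.12, limma adjusted p = 0.0213). With DMSO it read 1449 and 1431 at 12 h and 1183 and 1057 at 4 h, 0.36 (limma adjusted p = 0.168). The other *Spred1* probe sets above background on all 8 arrays gave 0.39 to 0.65 with [BF/S+L/Ep] and 0.14 to 0.58 with DMSO. Of these, only the probe set with 0.54 and 0.49 in these arms passed, with [BF/S+L/Ep] (limma adjusted p = 0.0461). At their brightest probe sets, *Dusp1* and *Spred1* were higher at 12 h on every array of both arms.

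Among the genes without a call, *Gadd45b* gave 0.54 and 0.62 in the [BF/S+L/Ep] and DMSO arms at its brightest probe set. Its probe set of next highest signal gave 0.73 (limma adjusted p = 0.00367) and 0.85 (limma adjusted p = 0.00142). The dimmest probe set of *Gadd45b*, also above background on all 8 arrays, gave -0.07 and 0.24 and did not pass. *Phlda1*, *Zfp36* and *Nr4a3* were higher at 12 h on every array in both arms without passing. *Myc* was lower on every 12 h array in both arms, by 0.24 with [BF/S+L/Ep] and 0.68 with DMSO (limma adjusted p = 0.700 and 0.129). *Hbegf*, a ligand of the EGF receptor, was under background on both DMSO arrays at 4 h. At 12 h with DMSO it was at least 1.26-fold higher, bounded against that background (limma adjusted p = 0.441). At their brightest probe sets, *Srf* and *Errfi1*, an inhibitor of the EGF receptor, stayed within 0.15 of 0 (log2) in both arms. The 95% interval for *Srf* with [BF/S+L/Ep] was -0.33 to 0.46. The other probe set of *Srf*, above background on all 8 arrays, gave -0.39 with [BF/S+L/Ep], without overlap, and 0.003 with DMSO. That of *Errfi1* gave 0.30 and -0.22 in the same arms, and none of these passed.

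**Figure D4:**
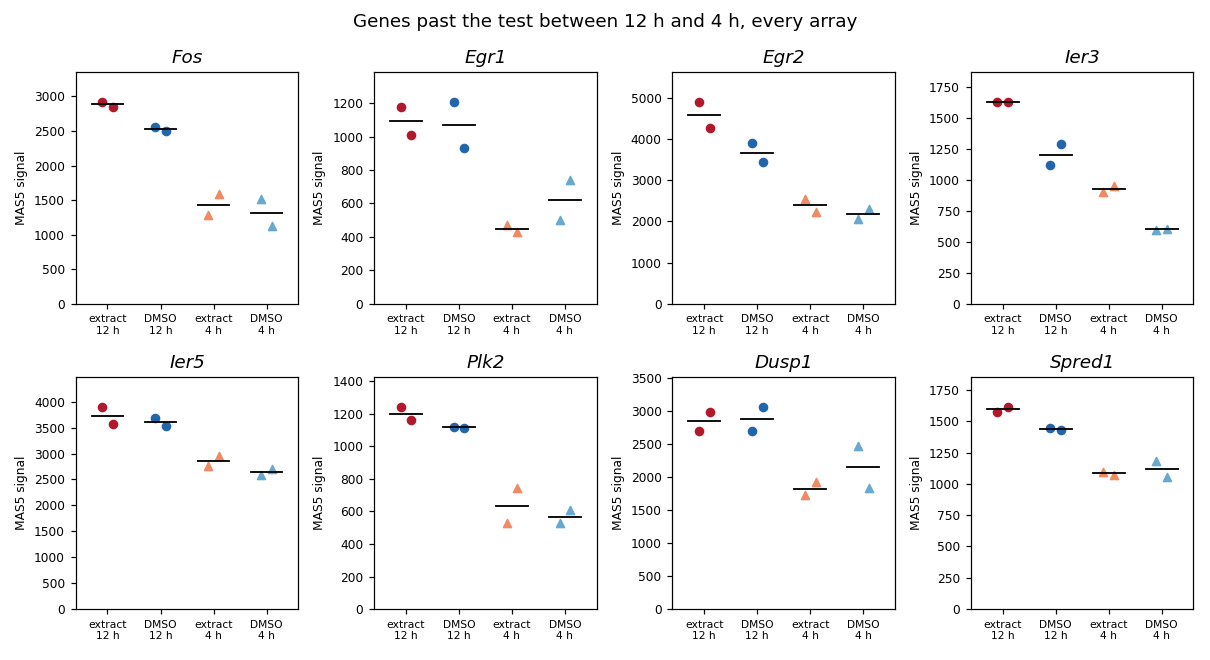
Signals of the 8 genes past the test between 12 h and 4 h in at least 1 arm (y axis, MAS5 signal from 0). Each point is 1 array and the bar is the mean of the 2 arrays, with [BF/S+L/Ep] 12 h, DMSO 12 h, [BF/S+L/Ep] 4 h and DMSO 4 h from left to right. Within each arm, every 12 h array is above both 4 h arrays, and *Ier3* is also apart between treatments at each time.

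These calls depended on single arrays and on the moderation. Without DMSO 12 h replicate 1 the DMSO arm kept 1 call (*Ier3*), without DMSO 12 h replicate 2 it had 2 and without DMSO 4 h replicate 1 it had 3. Leaving out replicate 1 of the extract at 12 h, or replicate 1 at 4 h, left 4 in the extract arm (*Fos*, *Egr1*, *Egr2* and *Ier3*), which also passed without any other array. Without the intensity trend no probe set passed in either arm. The 95% intervals for the 34 measured genes are drawn for both arms in the plot of 12 h against 4 h.

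**Figure D5:**
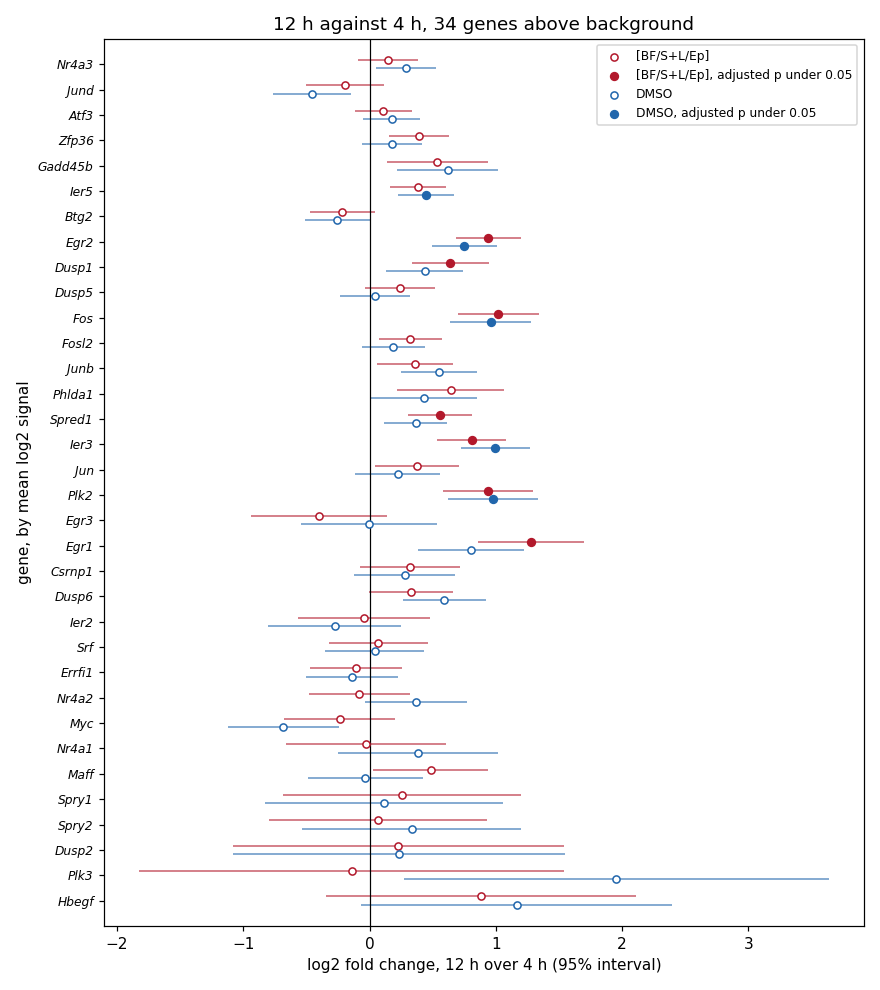
Log2 fold change of 12 h over 4 h with 95% intervals (x axis) for the 34 genes above background on at least 4 arrays (y axis, by mean log2 signal), with [BF/S+L/Ep] in red and DMSO in blue. Filled points passed an adjusted p under 0.05. *Fos*, *Egr2*, *Ier3* and *Plk2* are filled in both arms, between 0.75 and 1.02.

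Markers of other cells moved with time as well. Of 9 measured macrophage markers, 3 (*Adgre1*, *C5ar1* and *C1qa*) rose in both arms and *Marco* was under background on all arrays. The summed macrophage signals were 55810 to 59396 with [BF/S+L/Ep] at 12 h, 58332 to 59191 with DMSO at 12 h, 50653 to 54051 with [BF/S+L/Ep] at 4 h and 54801 to 55829 with DMSO at 4 h. The 6 platelet markers summed to 21956 to 23123, 17493 to 18672, 12797 to 17077 and 12277 to 14278 in the same order. Most of each sum was *Pf4*, at 22607 and 21446, 16662 and 18171, 16608 and 12270, and 11816 and 13718. *Pf4* was called higher at 12 h than at 4 h with [BF/S+L/Ep]. The median log2 fold change of the 6 markers for the extract was -0.16 at 12 h and 0.06 at 4 h. For time it was 0.34 with [BF/S+L/Ep] and 0.41 with DMSO. Of 3 measured eosinophil markers, *Siglecf* was lower at 12 h in both arms. The others, *Prg2* and *Epx*, were under background on all arrays. Of the 14 DC markers, *Zbtb46* rose in both arms and *Irf8* and *Batf3* with DMSO, and none was called lower. *Itgax* was lower at 12 h without a call. It read 15329 and 14431 at 12 h and 19031 and 18834 at 4 h with [BF/S+L/Ep]. With DMSO it read 13920 and 15234 at 12 h and 18420 and 19541 at 4 h. The median log2 fold change of the 14 markers for time was 0.05 with [BF/S+L/Ep] and 0.01 with DMSO. The part of these cells in the changes of *Fos*, *Egr2*, *Ier3* and *Plk2* was not tested. No marker of the lists was called for the extract at 12 h or at 4 h.

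Genes around the set were read from lists of the pathway. In the ERK cascade (16 of 23 genes measured), none was called for the extract and *Rps6ka3*, an ERK-activated kinase, fell with time in the [BF/S+L/Ep] arm (-0.51, limma adjusted p = 0.0235). Of 23 genes of the p38 and JNK cascade, *Mapkapk2*, the kinase downstream of p38, rose in both arms (0.69 with [BF/S+L/Ep] and 0.56 with DMSO). *Map3k8* rose and *Mapk13* fell with [BF/S+L/Ep], and *Mapk9* fell with DMSO. Of 23 other phosphatases and feedback genes, *Rgs1* rose in both arms (0.98 and 1.10) and no other was called. Of 18 upstream transcription factors, *Mrtfb*, a cofactor of SRF, fell in both arms (-0.54 and -0.61) and *Ets2* rose with DMSO. Of 17 further AP-1 family genes, *Maf* rose in both arms (1.19 and 1.003), *Mafg* with [BF/S+L/Ep] and *Batf3* with DMSO.

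Of 40 other immediate early genes, 5 rose and 2 fell with [BF/S+L/Ep] and 3 rose and 2 fell with DMSO, 12 h against 4 h. Of genes at their brightest probe set, 4.26% and 3.34% were called in these arms. *Nfkbiz*, an atypical IκB protein, rose by 1.54 and 1.66 on the log2 scale in the [BF/S+L/Ep] and DMSO arms, and *Tnfaip3* (A20), a brake on NF-κB, rose by 0.86 and 0.87. *Vegfa* rose in both arms, and *Socs3* and *Irf1* with [BF/S+L/Ep]. *Klf2* and *Klf4*, Krüppel-like factors, fell in both arms. *Klf4* was also the 1 gene of these lists called for the extract, lower over both times by 0.65 on the log2 scale (limma adjusted p = 0.0133). The median log2 fold change of the 40 genes for the extract was -0.10 at 12 h and -0.04 at 4 h.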

How the data were processed

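RNA of the 8 samples was measured on Affymetrix mouse Genome 430 2.0 arrays. The intensity values are the MAS5 signals that the authors deposited, not log-transformed. No version of MAS5 is given in the sources used here. Of 45101 probe sets, 64 controls were left out. Of the 45037 tested, 34945 have 1 symbol in the annotation used, 932 have several and 9160 none. A group counts as under background if neither array exceeds its own reference.

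A model with 1 mean per group was fitted to the log2 signals by limma 3.58.1 under R 4.3.3. Variances were moderated along the intensity trend, with 4 residual and 8.83 prior degrees of freedom. The 6 contrasts were the extract at 12 h, at 4 h, over both, its difference between times, and 12 h against 4 h in each arm. P-values are two-sided and were adjusted by Benjamini-Hochberg across all 45037 probe sets, with a threshold of 0.05. Python 3.11.15 and matplotlib 3.10.9 drew the figures.

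Genes given in full were those with an adjusted p under 0.05 in any contrast, the 3 with the smallest p in each extract contrast, and the 5 brightest. Other genes were named after their values were seen. Members and lists (6 pathway lists and 10 lists of cell markers) were chosen with earlier results of these data known. Marker lists of neutrophils, mast cells and basophils, erythroid, B and stromal cells had 0 calls in any contrast. The T and NK cell list, with 6 genes measured, had 1, *Cd8a*, higher with [BF/S+L/Ep] at 12 h than at 4 h. Its other measured genes, *Cd3e*, *Cd3g*, *Cd3d*, *Ncr1* and *Gzmb*, were under background on all arrays. Alternatives were quantile normalization, centring on the array median, an added offset of 50, leaving out dim probe sets, robust moderation, no trend, a block for the replicate number, the dimmer probe set of a gene, only the 4 arrays of a contrast, and each array left out in turn.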

Additional observations from a re-analysis of the deposited data

Results flagged for a closer look

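*Fosb* stood out because every extract-treated array was on 1 side of the vehicle arrays at 12 h and on the other side at 4 h. It read 49.6 and 33.9 with [BF/S+L/Ep] and 17.8 and 4.4 with DMSO at 12 h, and 49.2 and 62.6 with [BF/S+L/Ep] and 87.4 and 90.5 with DMSO at 4 h. All 8 signals were under background, so no fold change is given for either time. The fit put the difference of the extract effects, 12 h minus 4 h, at 2.89 on the log2 scale, a number set by values under background that measures no change of the transcript.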

How the results depend on the processing

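Of 382 values of named genes under the alternatives, 325 kept their direction and their side of the threshold, 57 kept the direction and no longer passed, and 0 turned round. All those that no longer passed belong to genes and contrasts called in the fit described above. The rest include genes and contrasts that were not called there, for which staying on that side says little. For the extract over both times, the count of called genes was 0 in place of 1 with quantile normalization, centring on the array median, an offset of 50, no trend and robust moderation, and 0 to 0 without any 1 array. For 12 h against 4 h it was 0 without the trend in both arms, 4 to 7 without 1 array with [BF/S+L/Ep], and 1 to 6 without 1 array with DMSO. The count of 0 for the extract at 12 h, at 4 h and for the difference between times held under every alternative run. The median log2 fold change of the 38 genes moved by more than the spread between replicate arrays in these cases. Centring on the array median gave 0.20 for the extract at 12 h, 0.17 at 4 h and 0.19 over both, and 0.26 and 0.24 for time with [BF/S+L/Ep] and DMSO. An offset of 50 gave 0.27 and 0.24, and quantile normalization 0.29 with [BF/S+L/Ep]. The filter on dim probe sets gave 0.33 with DMSO. The dimmer probe set gave 0.24 and 0.26 for time in the same arms and -0.02 for the difference of extract effects. Without 1 array the medians were 0.07 to 0.17 at 12 h, 0.05 to 0.12 at 4 h, 0.11 to 0.16 over both, -0.07 to 0.06 for the difference, 0.30 to 0.37 for time with [BF/S+L/Ep] and 0.28 to 0.36 with DMSO. The causes were not tested. Of the time calls, *Ier3* kept its call without any 1 array in both arms, and *Fos*, *Egr1* and *Egr2* with [BF/S+L/Ep]. Deviations of same-numbered arrays correlated between -0.03 and 0.11, with 2 of the 6 pairs of groups over 0.1. The sources used here do not say whether same-numbered arrays belong to 1 experiment, so they were not treated as pairs. With the replicate number as a block, *Ier5* lost its call in the DMSO arm (limma adjusted p = 0.0531), which left 4, and the counts were 7 for time with [BF/S+L/Ep], 1 over both times and 0 for the other contrasts.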
